A study of Arabidopsis thaliana with 29 samples.

Results

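RNA-directed DNA methylation is the plant pathway in which small RNAs guide new cytosine methylation to transposons and other repeats. It was followed here through 10 Arabidopsis thaliana genes chosen by name for their roles in it, of 33341 genes in the table of total reads. They were NRPD1 (AT1G63020), NRPE1 (AT2G40030), NRPD2 (AT3G23780), CLSY1 (AT3G42670), RDR2 (AT4G11130), DCL3 (AT3G43920), AGO4 (AT2G27040), AGO6 (AT2G32940), AGO9 (AT5G21150) and DMS3 (AT3G49250). Parental fractions over exons were held for 8 of the 10, all but DCL3 and AGO6, among 12448 genes. In the RefSeq TAIR10.1 annotation the genes of the early steps are NRPD1 at chr1:23354685-23362589 (- strand), NRPE1 at chr2:16714460-16723718 (+ strand), NRPD2 at chr3:8567572-8574209 (- strand), CLSY1 at chr3:14755798-14760629 (- strand) and RDR2 at chr4:6780449-6784632 (+ strand). The same annotation has DCL3 at chr3:15753387-15760859 (+ strand), AGO4 at chr2:11536502-11542391 (- strand), AGO6 at chr2:13971916-13977521 (- strand), AGO9 at chr5:7192239-7198381 (+ strand) and DMS3 at chr3:18255960-18260998 (- strand).

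The RNA came from F1 embryos between the Col-0 and Tsu-1 strains, made in both directions, and from ovules of Col-0 that had not been fertilized. In Col-0 x Tsu-1 the mother was Col-0, and in Tsu-1 x Col-0 it was Tsu-1. Embryos were taken as zygotes, at the octant, globular and heart stages, and later at the torpedo and bent stages and at maturity. The labels name no mutation, transgene or treatment for any group, and the ovules were of the Col-0 accession alone, while the zygotes had mothers of both strains. Embryos were isolated by hand and their polyadenylated RNA was amplified before sequencing, per the labels' protocols.

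There were 29 libraries in 15 groups: 2 in each group, except 1 for the Col-0 x Tsu-1 zygote. The labels describe that zygote sample as 3 technical libraries of 1 RNA extraction. Col-0 x Tsu-1 globular replicate 1 is listed with 2 technical libraries. Library totals ran from 689581 to 60410348 reads. The lowest total was that of Tsu-1 x Col-0 bent replicate 2, in which 3 reads amounted to 3.72 CPM (counts scaled to a common library size). Labels name biological replicates but not the plants behind them. Levels are CPM adjusted by the trimmed mean of M-values (TMM), a scaling that sets most genes level between libraries. Changes are log2 fold changes from edgeR's quasi-likelihood test with their standard errors, called at a Benjamini-Hochberg adjusted p under 0.05 over all genes tested.

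Markers of other tissues moved with stage. The summed level of 16 seed coat genes was 138 to 182 CPM in the ovules, 6140 to 13900 CPM at the zygote, 3360 to 5370 CPM at the octant, 779 to 1740 CPM at the globular stage and 116 to 376 CPM at the heart, and all 16 had reads in every zygote and octant library. The 11 endosperm genes summed to 34.9 to 44.0 CPM at the zygote and 41.1 to 77.2 CPM at the octant, against 7.37 to 10.9 CPM in the ovules. The 5 egg cell genes summed to 74.6 to 86.9 CPM in the ovules, 62.9 to 263 CPM at the zygote and 16.6 to 20.1 CPM at the octant. The 12 embryo patterning genes summed to 111 to 1030 CPM over the embryo libraries, and 1 of them, TMO7, had no reads in any zygote library. The 10 seed storage genes took 39.0 to 47.8% of the reads in Col-0 x Tsu-1 bent embryos and 6.92 to 9.41% in Tsu-1 x Col-0 ones. At the mature stage they took 58.8 to 61.4% and 18.7 to 18.8%. Heart Tsu-1 x Col-0 replicate 2 stood apart from the other 3 heart libraries with 2540 CPM of storage genes, where the others had 32.9 to 43.3 CPM, and the Col-0 x Tsu-1 zygote had 1300 CPM against 65.3 and 89.1 CPM. The part of these tissues and of the storage genes in the changes below was not tested.

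In this pathway RNA polymerase IV, recruited by the CLASSY chromatin remodelers, makes short transcripts that RDR2 copies into double-stranded RNA. DCL3 cuts the duplexes into small interfering RNAs, which are loaded into an argonaute of the AGO4, AGO6 and AGO9 group. The loaded argonaute finds its targets through nascent transcripts of RNA polymerase V, whose work needs DMS3, and a methyltransferase of the DRM family then methylates the DNA. In seeds and ovules the pathway is known for abundant maternal small RNAs and for silencing transposons near germ cells.

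**Figure D1:**
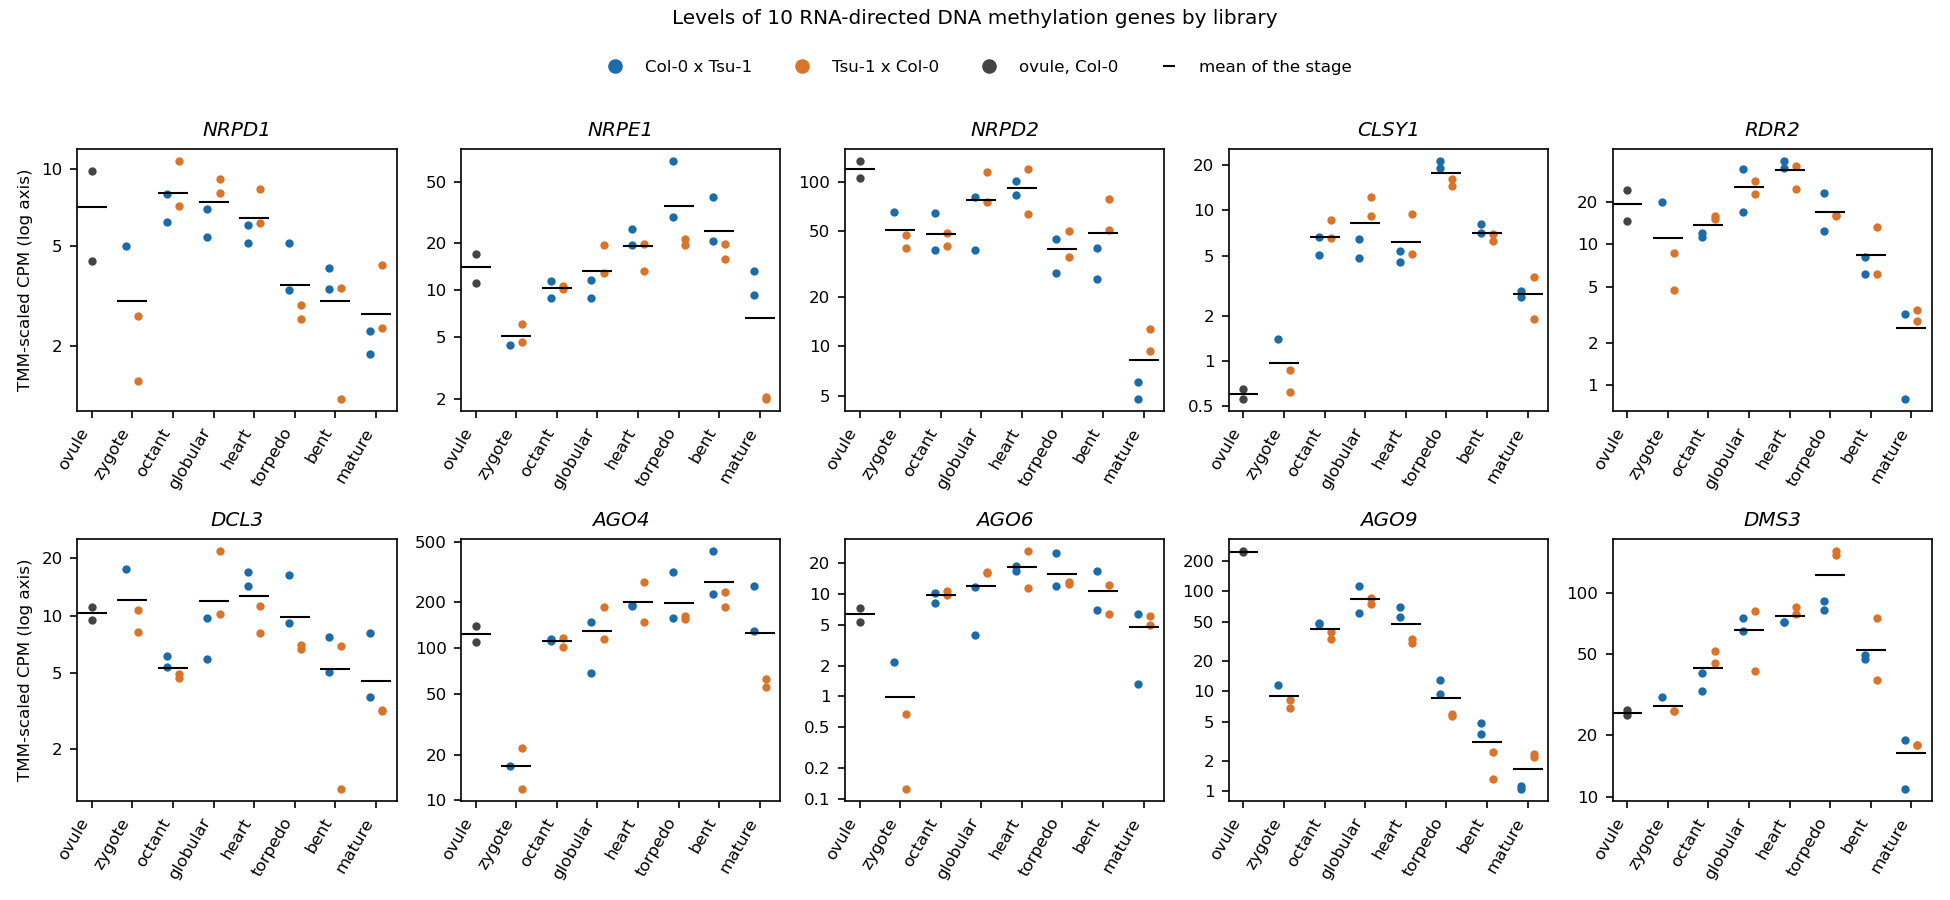
Levels of the 10 genes in each of 29 libraries, in TMM-scaled CPM on log axes, by stage from ovule to mature embryo. Points are libraries coloured by cross and bars are means of a stage. AGO9 was at 254 and 247 CPM in the ovules and at 1.06 to 2.37 CPM in mature embryos, while CLSY1 was highest at the torpedo stage, at 14.4 to 21.2 CPM.

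All 10 genes varied over the 7 embryo stages in the test of any stage difference, where 91.2% of all genes tested did, so the share says nothing particular of them. The adjusted p-values ran from 7.88e-13 for AGO9 to 0.00619 for DCL3. The genes did not share a course. Over the 15 group means of log2 CPM, the 45 pairs of members had a median Pearson correlation of 0.43, from -0.20 to 0.90, with 3 pairs over 0.8 and 12 under 0.2, given as a description of groups that share depth and scaling.

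NRPD1 and NRPE1 encode the largest subunits of polymerase IV and polymerase V, and NRPD2 the second subunit that both use. In bulk samples such as these, fewer cells of a type and less RNA per cell cannot be told apart. The level of NRPD1 was 9.82 and 4.34 CPM in the ovules, 4.98 CPM in the Col-0 x Tsu-1 zygote, 1.46 and 2.63 CPM in the Tsu-1 x Col-0 zygotes and 6.17 to 10.8 CPM at the octant. No zygote library reached the octant range, yet the difference of 1.41 ± 0.47 (log2, SE) missed the threshold (edgeR adjusted p = 0.052). With library totals alone in place of TMM it was 1.92 (edgeR adjusted p = 0.0376), where the median gene also moved by 0.56. From heart to torpedo NRPD1 fell by 1.00 ± 0.31 (log2, SE; edgeR adjusted p = 0.0488), from 5.14 to 8.34 CPM to 2.56 to 5.12 CPM. The groups did not overlap, but the margin was narrow, and 11 of 14 alternatives lost the call. They included leaving out any 1 of the heart and torpedo libraries except Col-0 x Tsu-1 torpedo replicate 1, at adjusted p of 0.0627 to 0.178.

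NRPE1 had its lowest embryo mean at the zygote and its highest at the torpedo stage. Its level was 4.47 CPM in the Col-0 x Tsu-1 zygote, 6.10 and 4.67 CPM in the Tsu-1 x Col-0 zygotes, and 8.86 to 11.4 CPM at the octant. From zygote to octant it rose by 1.03 ± 0.28 (log2, SE; edgeR adjusted p = 0.0259), with no overlap between the groups, and leaving out any 1 of the 4 octant libraries lost the call at adjusted p of 0.0576 to 0.0949. The torpedo mean was 34.7 ± 22.6 CPM (SD, n = 4), with 67.9 and 29.8 CPM in the Col-0 x Tsu-1 libraries and 19.6 and 21.4 CPM in the Tsu-1 x Col-0 ones. From bent to mature NRPE1 fell by 2.06 ± 0.40 (log2, SE; edgeR adjusted p = 0.00165).

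NRPD2, needed by both polymerases, had a higher stage mean per length than either largest subunit at every stage. This did not hold within each cross, since NRPE1, at 2.01 and 1.4 CPM per kilobase of exon in the mature Col-0 x Tsu-1 libraries, was above NRPD2 in both of them. The NRPD2 mean at the heart was 22.1 ± 5.75 CPM per kilobase of exon (SD, n = 4), against 2.91 ± 0.70 for NRPE1 and 1.19 ± 0.253 for NRPD1. It was at 105 and 134 CPM in the ovules and at 63.9 to 119 CPM in the heart. From heart to torpedo it fell by 1.34 ± 0.28 (log2, SE; edgeR adjusted p = 0.0112) to 27.8 to 50.0 CPM, below every heart library. From bent to mature it fell by 2.51 ± 0.29 (log2, SE; edgeR adjusted p = 8.53e-05), from 25.8 to 78.2 CPM to 4.79 to 12.8 CPM. Both calls held in all 14 alternatives run for each.

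The balance of the 2 largest subunits is given per length as a description. NRPE1 made up 43.4 to 54.4% of the NRPD1 and NRPE1 total at the octant, 84.6 to 91.5% at the torpedo stage and 79.2 to 92.8% at the bent stage. The octant and torpedo ranges did not overlap. At the mature stage the share was scattered, from 27.8 to 82.5%. The RNA was amplified, so length may not be read evenly between genes.

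CLSY1 helps recruit polymerase IV to chromatin. It had 0.561 and 0.65 CPM in the ovules and 1.39, 0.627 and 0.875 CPM in the zygotes. CLSY1 had only 20 and 3 reads in the ovules and 85, 15 and 9 in the zygotes. At the octant it was at 6.60 and 5.06 CPM in the Col-0 x Tsu-1 libraries and at 8.55 and 6.50 CPM in the Tsu-1 x Col-0 ones. All 4 octant libraries lay above all zygote and ovule libraries, and the rise from zygote to octant was 2.75 ± 0.44 (log2, SE; edgeR adjusted p = 0.00561).

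CLSY1 was at 5.33, 4.56, 9.43 and 5.10 CPM in the 4 heart libraries and at 21.2, 19.1, 14.4 and 16.1 CPM in the 4 torpedo libraries. Every torpedo library was above every heart library, with a rise of 1.44 ± 0.30 (log2, SE; edgeR adjusted p = 0.0109). It fell again to 6.21 to 8.14 CPM at the bent stage, by 1.24 ± 0.25 (log2, SE; edgeR adjusted p = 0.00148), and to 1.90 to 3.60 CPM in mature embryos, by 1.31 ± 0.34 (log2, SE; edgeR adjusted p = 0.00798). These 4 calls held in every alternative run.

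The other CLASSY genes were set beside CLSY1 after their values were seen, as levels per length with no test of the shares. CLSY3, known for its role in ovules, made up 76.5 to 90.4% of the family total in ovules and 81.7 to 89.9% in zygotes, and CLSY1 made up 0.548 to 4.79% in the same libraries. The CLSY3 share was 54.2 to 74.9% at the octant and 1.66 to 3.35% at the torpedo stage. CLSY4 made up 42.0 to 58.4% at the heart and 47.9 to 57.4% at the torpedo stage, where CLSY1 made up 37.0 to 45.6%. CLSY2 made up at most 9.92% before the bent stage and 33.5 to 62.9% at it.

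**Figure D2:**
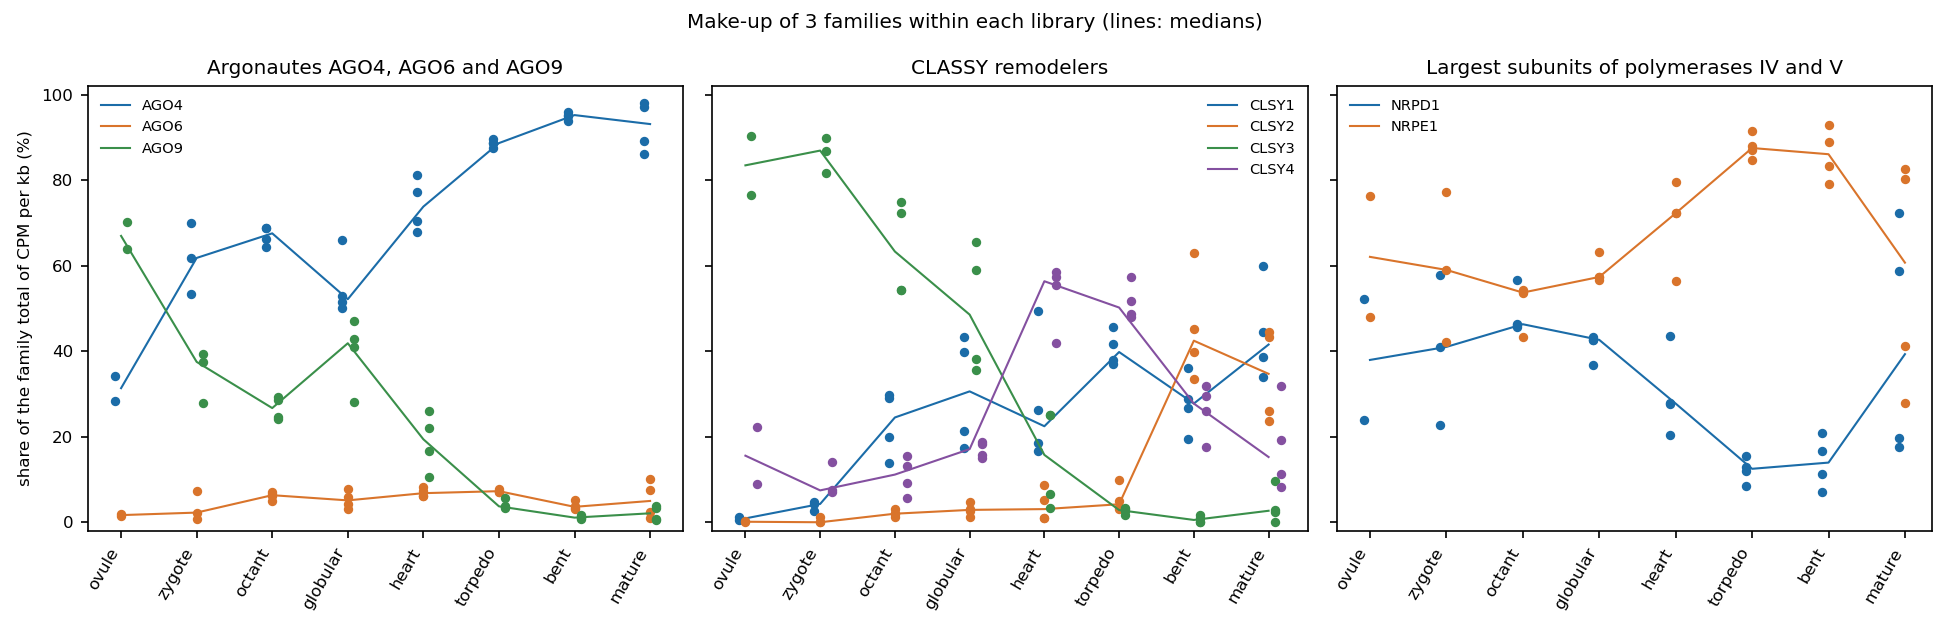
Share of each gene in its family's total of CPM per kilobase of exon, in percent, by stage, for the argonautes AGO4, AGO6 and AGO9, the 4 CLASSY genes, and NRPD1 with NRPE1. Points are libraries and lines join medians. AGO9 made up 63.8 to 70.1% of the argonaute total in ovules and 0.716 to 1.68% at the bent stage.

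RDR2 encodes the RNA-dependent RNA polymerase that works with polymerase IV. It was at 14.6 and 24.3 CPM in the ovules, at 20.1 CPM in the Col-0 x Tsu-1 zygote and at 8.66 and 4.76 CPM in the Tsu-1 x Col-0 zygotes. At the octant it was at 11.3 to 16.0 CPM and at the globular stage at 17.0 to 34.6 CPM, without overlap, a rise of 0.96 ± 0.25 (log2, SE; edgeR adjusted p = 0.0107). The heart had the highest embryo mean, 33.7 ± 6.22 CPM (SD, n = 4).

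RDR2 then fell at 3 steps in a row. The step from heart to torpedo was -1.11 ± 0.24 (log2, SE; edgeR adjusted p = 0.0136), with 24.8 to 39.2 CPM before and 12.4 to 23.0 CPM after, and was lost without Tsu-1 x Col-0 torpedo replicate 2 (adjusted p = 0.0513). Torpedo to bent was -0.88 ± 0.30 (log2, SE; edgeR adjusted p = 0.0304), with overlapping groups, and the call was lost without either Col-0 x Tsu-1 bent library, Tsu-1 x Col-0 bent replicate 2 or Col-0 x Tsu-1 torpedo replicate 1, at adjusted p of 0.0546 to 0.126. Without the last of these the value was -0.58. The last step to the mature stage was -1.71 ± 0.37 (log2, SE; edgeR adjusted p = 0.00311), to 0.798 to 3.40 CPM, below every bent library.

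DCL3, the dicer that cuts these duplexes, had the flattest course, with a ratio of 2.76 between its highest and lowest stage means. It was at 17.5 CPM in the Col-0 x Tsu-1 zygote, 10.7 and 8.17 CPM in the Tsu-1 x Col-0 zygotes and 4.73 to 6.12 CPM at the octant. From zygote to octant it fell by 1.25 ± 0.28 (log2, SE; edgeR adjusted p = 0.0145) without overlap, the only member called lower at that step. From octant to globular it rose by 1.04 ± 0.33 (log2, SE; edgeR adjusted p = 0.0296), though globular libraries at 5.96 to 21.8 CPM overlapped the octant. Scaled by library totals alone, neither change was called (-0.67, adjusted p = 0.178, and 0.85, adjusted p = 0.0759). The first was also lost without either Tsu-1 x Col-0 octant library (adjusted p = 0.0532 and 0.0566), and the second without Col-0 x Tsu-1 globular replicate 1, Col-0 x Tsu-1 octant replicate 1 or either Tsu-1 x Col-0 octant library (adjusted p of 0.0509 to 0.0895).

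AGO9, an argonaute known in Arabidopsis ovules for silencing transposons around the developing germ line, had the widest course of the 10. It was at 254 and 247 CPM in the ovules and at 11.7, 6.82 and 8.26 CPM in the zygotes. The difference from ovule to zygote was -4.82 ± 0.58 (log2, SE; edgeR adjusted p = 0.0121), with the groups far apart. Leaving out 1 ovule library, which left a single ovule, lost the call at adjusted p of 0.20 and 0.101. An ovule is mostly tissue of the mother plant, so the step is also one between tissues.

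In the octant AGO9 was at 46.7 and 47.9 CPM in the Col-0 x Tsu-1 libraries and at 39.6 and 33.6 CPM in the Tsu-1 x Col-0 ones. That was a rise of 2.15 ± 0.26 from the zygote (log2, SE; edgeR adjusted p = 0.00363), without overlap. A further rise of 1.03 ± 0.24 (log2, SE; edgeR adjusted p = 0.00657) took it to 61.0 to 113 CPM in the globular embryo. The globular stage was the highest of the embryo stages at 83.8 ± 22.2 CPM (SD, n = 4), still below both ovule libraries.

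After the globular stage AGO9 went down. The step to the heart was -0.94 ± 0.29 (log2, SE; edgeR adjusted p = 0.0481), with overlapping groups, and 9 of 14 alternatives lost it. They included leaving out any 1 of the globular and heart libraries except Col-0 x Tsu-1 globular replicate 2, at adjusted p of 0.072 to 0.141. From heart to torpedo the libraries went from 69.8, 56.1, 30.5 and 33.2 CPM to 13.1, 9.42, 5.88 and 5.66 CPM, a fall of 2.58 ± 0.21 (log2, SE; edgeR adjusted p = 0.000222) with no overlap. From torpedo to bent it fell by 1.54 ± 0.31 (log2, SE; edgeR adjusted p = 0.00155), to 1.32 to 4.85 CPM, and the mature level of 1.06 to 2.37 CPM did not differ from it past the threshold.

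AGO4, the main effector argonaute of the pathway, was at 109 and 140 CPM in the ovules, at 16.8, 11.9 and 22.0 CPM in the zygotes, and at 114, 111, 117 and 101 CPM in the octant libraries. The zygotes lay below all ovule and octant libraries. The change was -2.90 ± 0.53 from ovule to zygote (log2, SE; edgeR adjusted p = 0.025) and 2.69 ± 0.34 from zygote to octant (log2, SE; edgeR adjusted p = 0.00376). The first was lost without either ovule library (adjusted p = 0.224 and 0.197) or either Tsu-1 x Col-0 zygote library (adjusted p = 0.0701 and 0.0655), and the second held in every alternative run.

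From the octant to the bent stage no step of AGO4 was called, and its highest mean was at the bent stage, 271 ± 111 CPM (SD, n = 4). From bent to mature it fell by 1.27 ± 0.36 (log2, SE; edgeR adjusted p = 0.0125), but the groups overlapped, since Col-0 x Tsu-1 mature replicate 1 was at 256 CPM while the Tsu-1 x Col-0 mature libraries were at 62.4 and 55.4 CPM. Leaving out either of the latter lost the call, at adjusted p of 0.0584 and 0.0638.

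AGO6, a close relative of AGO4 known from meristems, was at 5.39 and 7.37 CPM in the ovules. It was at 2.17 CPM in the Col-0 x Tsu-1 zygote, at 0.125 and 0.681 CPM in the Tsu-1 x Col-0 zygotes, and at 8.25 to 10.6 CPM in the octant. The Tsu-1 x Col-0 zygote values of AGO6 rested on 3 and 7 reads. No zygote library reached the ovules or the octant. The rise from zygote to octant was 3.40 ± 0.75 (log2, SE; edgeR adjusted p = 0.0136) and held in all alternatives, at adjusted p of up to 0.0498. No later step of AGO6 was called with TMM. Its mean was highest at the heart, at 18.4 CPM, and was 4.72 CPM at the mature stage. From bent to mature the difference of -1.07 ± 0.47 (log2, SE) missed the threshold (edgeR adjusted p = 0.0766). With library totals alone torpedo to bent was called at -1.39 and bent to mature at -2.04 (edgeR adjusted p = 0.00599 and 0.00351). The median gene moved by -0.87 and -0.95 in those fits.

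Per length, the argonaute of highest level was AGO9 in the ovule, at 63.8 to 70.1% of the total of AGO4, AGO6 and AGO9. From the zygote on it was AGO4, with 50.0 to 69.9% through the globular stage and 93.8 to 95.9% at the bent stage. AGO9 made up 28.0 to 47.0% in globular embryos, 10.5 to 26.0% at the heart and 3.29 to 5.56% at the torpedo stage, where the ranges of successive stages did not overlap. AGO6 had stage medians of 1.67 to 7.27%.

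DMS3 is part of the DDR complex that lets polymerase V transcribe. It was at 26.5 and 25.1 CPM in the ovules, 26.3 to 30.6 CPM in the zygotes and 33.0 to 51.9 CPM at the octant. It was highest at the torpedo stage, with 82.0 and 90.9 CPM in the Col-0 x Tsu-1 libraries and 160 and 152 CPM in the Tsu-1 x Col-0 ones. From torpedo to bent it fell by 1.04 ± 0.26 (log2, SE; edgeR adjusted p = 0.00641) and from bent to mature by 1.62 ± 0.31 (log2, SE; edgeR adjusted p = 0.00138), to 10.9 to 18.9 CPM, each without overlap.

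The level of DMS3 is uncertain. In the RefSeq TAIR10.1 annotation it overlaps AT3G49240, on the opposite strand, by 2243 bases, and whether counting used strand is not given in the sources used here. Without strand, reads of the 2 genes cannot be told apart. Over the 15 group means their log2 CPM had a Pearson correlation of 0.69. DCL3 shares 43 bases with AT3G43930, also on the opposite strand, and the other 8 members overlap no annotated gene.

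**Figure D3:**
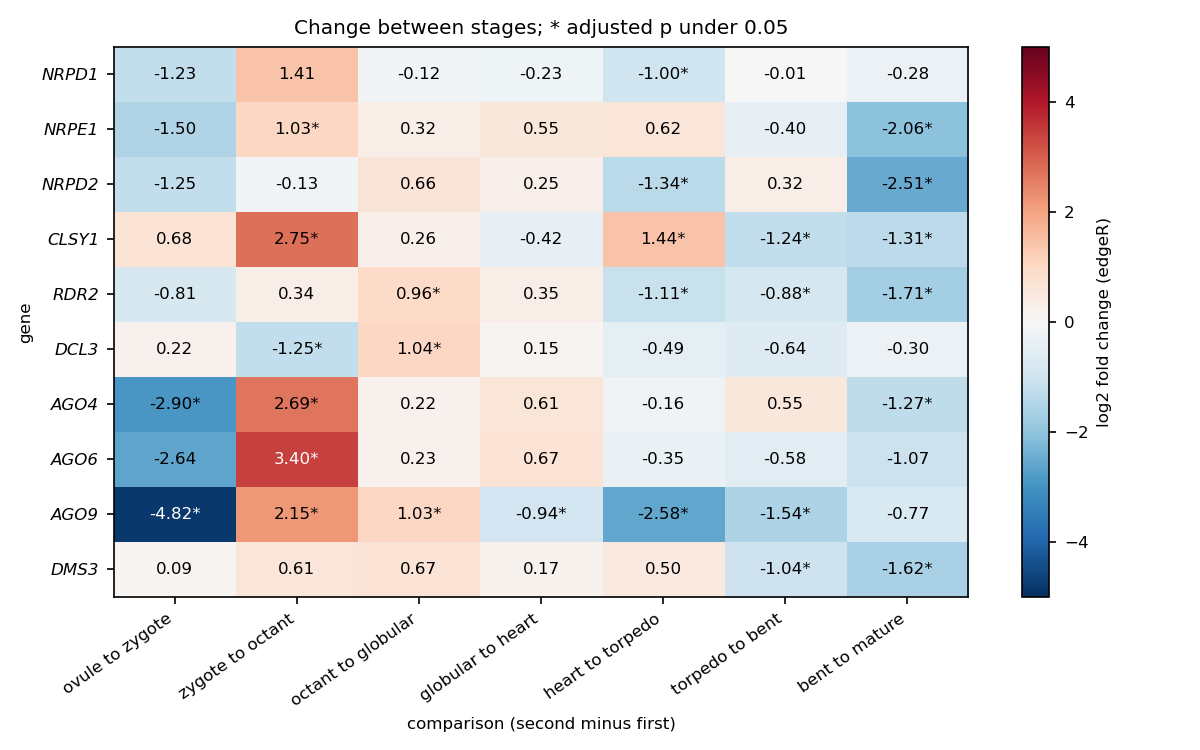
Log2 fold changes of the 10 genes between successive stages from edgeR, coloured from blue (lower in the second stage) to red (higher), with an asterisk at an adjusted p under 0.05. The zygote to octant column holds 5 called rises and 1 fall, and the bent to mature column 6 called falls.

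Read step by step, 2 members were called from ovule to zygote, both lower, where 8.8% of 23292 genes were called and 3.93% lower. From zygote to octant 6 were called, 5 higher and 1 lower, against 34.3% of all genes, 16.4% higher and 17.9% lower. The median member changed by 1.22 (log2) at that step and the median gene by -0.01. Summed seed coat markers went from 6140 to 13900 CPM to 3360 to 5370 CPM over the same step.

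From octant to globular 3 members rose, where 36.9% of genes were called, 17.0% higher. From globular to heart 1 fell, where 16.9% were called and 10.4% lower. From heart to torpedo 4 fell and CLSY1 rose, where 20.1% were called, 10.1% higher and 10% lower. From torpedo to bent 4 fell and 0 rose, where 44.4% were called, 22.4% lower. From bent to mature 6 fell and 0 rose, against 54.5% of all genes called, 29.2% lower, with a median of -1.29 (log2) over the 10 members and -0.02 over all genes.

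Scaling moved the median gene most late, when storage transcripts take much of the library, but it changed calls at early steps too. Library totals alone were also used in place of TMM, a choice made after seeing the data. The median gene itself then moved by -0.87 (log2) from torpedo to bent and by -0.95 from bent to mature. In those fits 7 and 10 members were called lower, where 9381 of 18795 and 9065 of 17692 genes were. The genes called higher made up 17.0% and 16.4% of all calls in those fits, against 49.5% and 46.4% with TMM. The same share went from 47.8 to 73.7% from zygote to octant, from 46.0 to 34.4% from octant to globular, from 50.1 to 73.1% from heart to torpedo and from 55.3 to 29.6% from ovule to zygote, with median genes at 0.56, -0.14, 0.23 and -0.65. With library totals alone 7 members rose from zygote to octant and 0 fell, where 4828 of 20623 genes rose. NRPD1 at 1.92 and DMS3 at 1.16 (log2, edgeR adjusted p = 0.0376 and 0.0338) were then called, and DCL3 was not. From octant to globular 2 rose, where 2256 of 19600 did. From heart to torpedo 2 rose and 3 fell, where 3032 of 18709 rose and 1115 fell. From ovule to zygote 3 fell, where 1868 of 23292 did. No called change of the 10 genes changed direction in any alternative.

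Reciprocal crosses of the same stage have the same nuclear alleles and differ in which accession was the mother. At the octant, globular and heart stages edgeR called 0 of the 10 genes, where 3.48, 0.75 and 7.53% of all genes were called. Unadjusted p was under 0.05 for 0, 2 and 1 of them, and DESeq2 called 0, 0 and 1. The shares of all genes by these measures are not given, so these counts say nothing particular of the members. At the zygote 3 genes were lower with the Tsu-1 mother, where 39.8% of genes were called, 22.6% lower. They were NRPD1 at -1.33 ± 0.49, AGO6 at -2.72 ± 0.82 and RDR2 at -1.56 ± 0.49 (log2, SE; edgeR adjusted p = 0.0315, 0.00972 and 0.0138). The Col-0 mother was represented by 1 zygote library, so the maternal accession and that library cannot be told apart. Leaving out Tsu-1 x Col-0 zygote replicate 1 lost NRPD1 and AGO6 (adjusted p = 0.229 and 0.191), and leaving out replicate 2 lost RDR2 (adjusted p = 0.106).

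NRPE1 differed between the crosses late. In mature embryos it was at 13.3 and 9.31 CPM with the Col-0 mother and at 2.00 and 2.06 CPM with the Tsu-1 mother, a difference of -2.49 ± 0.48 (log2, SE; edgeR adjusted p = 0.000896). The groups did not overlap and the call held in all 10 alternatives, among them library totals alone at -1.64 (adjusted p = 0.00914). At the torpedo stage the difference was -1.25 ± 0.38 (log2, SE; edgeR adjusted p = 0.03), and it was lost without Col-0 x Tsu-1 replicate 1, at -0.54 (adjusted p = 0.463), or without either Tsu-1 x Col-0 library (adjusted p = 0.178 and 0.115). At the torpedo stage 13.6% of genes were called, 7.62% lower, and at the mature stage 15% were called, 8.67% lower.

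AGO4 was also lower in mature embryos with the Tsu-1 mother, at 62.4 and 55.4 CPM against 256 and 129 CPM, a difference of -1.71 ± 0.48 (log2, SE; edgeR adjusted p = 0.0162). AGO9 was lower at the bent stage, at 1.32 and 2.48 CPM against 4.85 and 3.79 CPM, a difference of -1.56 ± 0.46 (log2, SE; edgeR adjusted p = 0.0234), where 15.8% of genes were called, 10% lower. Neither call held with library totals alone (-0.83, adjusted p = 0.196, and -0.84, adjusted p = 0.248). AGO4 was lost without Col-0 x Tsu-1 replicate 1 (adjusted p = 0.186) or either Tsu-1 x Col-0 library (adjusted p = 0.097 and 0.14), and AGO9 without Col-0 x Tsu-1 replicate 1 (adjusted p = 0.131) or Tsu-1 x Col-0 replicate 1 (adjusted p = 0.705).

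At the bent and mature stages storage transcripts took unlike shares of the reads in the crosses, 39.0 to 47.8% against 6.92 to 9.41% of reads at the bent stage and 58.8 to 61.4% against 18.7 to 18.8% at the mature stage. Of the 10 storage genes edgeR called 1 at each of these stages, lower with the Tsu-1 mother. Its unadjusted p was under 0.05 for 8 and 6 of them, with median differences of -3.2 and -2.89 (log2). At the heart it called 10, all higher, where Tsu-1 x Col-0 replicate 2 had 2540 CPM of storage genes and replicate 1 had 33.4 CPM. At the zygote it called 6, all lower, where the Col-0 mother had 1 library, at 1300 CPM. With library totals alone the median gene differed by 0.29 and 0.80 (log2) between the crosses at the bent and mature stages. The genes called higher with the Tsu-1 mother then went from 36.6 to 87.6% of calls at the bent stage, with 49.0% under RLE size factors, and from 42.0 to 90.0% at the mature stage. Members called were then NRPD2 and RDR2 at the bent stage, both higher, where 5244 of 25062 genes were called, 4593 of them higher. At the mature stage 5 members were called, 4 higher and NRPE1 lower, where 6793 of 25062 genes were called, 6115 of them higher. The share of calls that were higher went from 43.1 to 30.3% at the zygote and from 51.1 to 84.3% at the globular stage. It went from 65.6 to 84.9% at the heart and from 43.9 to 61.0% at the torpedo stage. Median genes of these other stages were at -0.45, 0.26, 0.24 and 0.00 with library totals alone.

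Whether a stage change differed between the crosses was tested as an interaction. From zygote to octant 2 members were called, AGO6 and RDR2, where 24.7% of genes were, and from bent to mature 1, AGO9, where 4.93% were. For the steps from octant to globular, globular to heart, heart to torpedo and torpedo to bent edgeR called 0 members, where 0.714, 0.223, 7.35 and 0.686% of genes were called. Unadjusted p was under 0.05 for 0, 1, 0 and 0 of them, and DESeq2 called 0 at each step. For these counts too the shares of all genes are not given.

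The deposited parental fractions say which allele the reads came from. They count reads over positions that differ between Col-0 and Tsu-1, are pooled over the libraries of a stage and cross, and lie nearer to 50% than the reads alone where these are few. Intervals are Wilson 95% intervals and cover counting error only. A gene was called maternal where the authors' adjusted p was under 0.05 towards the mother in both crosses. It also needed at least 10 variant reads in each cross. The fractions do not separate reads of the embryo from those of other tissue. Summed seed coat markers were at 6140 to 13900 CPM at the zygote, 3360 to 5370 CPM at the octant and 116 to 376 CPM at the heart. The part of seed coat RNA, which is of the mother plant, in the maternal shares was not tested.

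At the zygote, 3 of the 5 members with enough reads were maternal in both crosses in the authors' deposited table, where 41.1% of 7547 genes were. AGO9 was 90.9% maternal in Col-0 x Tsu-1 (95% interval 87.8 to 93.2, 430 variant reads) and 81.4% in Tsu-1 x Col-0 (74.5 to 86.7, 153 reads) in the authors' deposited table. AGO4 was 79.6% (75.4 to 83.2, 412 reads) and 86.7% maternal (80.2 to 91.3, 145 reads) in the authors' deposited table. For NRPD2 the authors' deposited table had 75.8% (71.5 to 79.5, 438 reads) and 96.2% (82.3 to 99.3, 29 reads). The medians over all genes in the authors' deposited table were 80.9% and 88.5%. Counted in 1 cross alone, 49.8% of genes were maternal in Col-0 x Tsu-1 and 74% in Tsu-1 x Col-0 in the authors' deposited table.

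DMS3 and CLSY1 lay outside this pattern in the zygote, and so did NRPE1 in Col-0 x Tsu-1 on 9 reads. DMS3 was 54.6% maternal (43.4 to 65.4, 75 reads) and 50.5% (41.7 to 59.3, 121 reads) in the authors' deposited table, both intervals lying below the medians of all genes. Its overlap with AT3G49240 holds for these reads too. NRPE1 was 44.9% maternal in Col-0 x Tsu-1 (19.2 to 73.7, 9 reads) in the authors' deposited table. In Tsu-1 x Col-0 NRPE1 was at 77.3% (51.1 to 91.7, 14 reads) in the authors' deposited table. RDR2 was at 88.3% in Col-0 x Tsu-1 (59.3 to 97.5, 11 reads) and had 0 reads in Tsu-1 x Col-0 there. CLSY1 was 19.0% maternal in Col-0 x Tsu-1 (6.94 to 42.5, 17 reads; the authors' adjusted p = 0.0468), a paternal call that 2.3% of genes had in that cross in the authors' deposited table. In Tsu-1 x Col-0 only 8 reads were listed for CLSY1, at 61.6%, with an interval of 29.9 to 85.8 in the authors' deposited table, so the cross direction could not be read both ways. NRPD1 was 85.7% maternal (78.6 to 90.7) in Col-0 x Tsu-1 with the authors' adjusted p = 0.00172, and 68.1% (51.8 to 81.0) in Tsu-1 x Col-0 with p = 0.159, in the authors' deposited table.

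At the octant 0 of 7 members were maternal in both crosses in the authors' deposited table, where 26.9% of genes were. In Col-0 x Tsu-1 alone AGO9, AGO4 and NRPD1 were called maternal in the authors' deposited table, at 92.3, 73.3 and 74.7%, where 57.5% of genes were. In Tsu-1 x Col-0 the same genes stood at 68.2, 67.7 and 61.2% in the authors' deposited table and were not called. The AGO9 intervals at the octant, 90.4 to 93.8 and 64.7 to 71.6, did not overlap between crosses in the authors' deposited table.

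From the globular stage on, 0 of 7, 8, 7, 7 and 2 members were maternal in both crosses in the authors' deposited table, stage by stage. Maternal calls in both crosses made up 1.9% of genes at the globular stage, 0.219% at the heart, 0.169% at the torpedo stage, 0.0512% at the bent stage and 0% at maturity in the authors' deposited table. AGO4, with 3181 and 867 variant reads at the globular stage, stood at 57.4% (55.7 to 59.1) and 45.7% (42.4 to 49.0) in the authors' deposited table. AGO9 stood at 42.6% (40.9 to 44.4) and 62.4% (59.3 to 65.4) there in the authors' deposited table. Both values lay towards the Tsu-1 allele, but the authors' adjusted p was 0.784 and 0.557 and neither was called. The intervals cover counting error only. Of the mature stage, only AGO4 and NRPD1 had 10 or more reads in both crosses in the authors' deposited table. At the zygote, octant and heart the members' median in Col-0 x Tsu-1 was 79.6, 71.7 and 50.8% in the authors' deposited table. That of all genes was 80.9, 78.6 and 51.9% there. In Tsu-1 x Col-0 the members stood at 79.3, 66.6 and 54.2% and all genes at 88.5, 69.6 and 50.3% in the authors' deposited table. Globular medians in Col-0 x Tsu-1 were 57.4% for members and 55.8% for all genes in the authors' deposited table. In Tsu-1 x Col-0 they were 45.7 and 56.0% there.

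**Figure D4:**
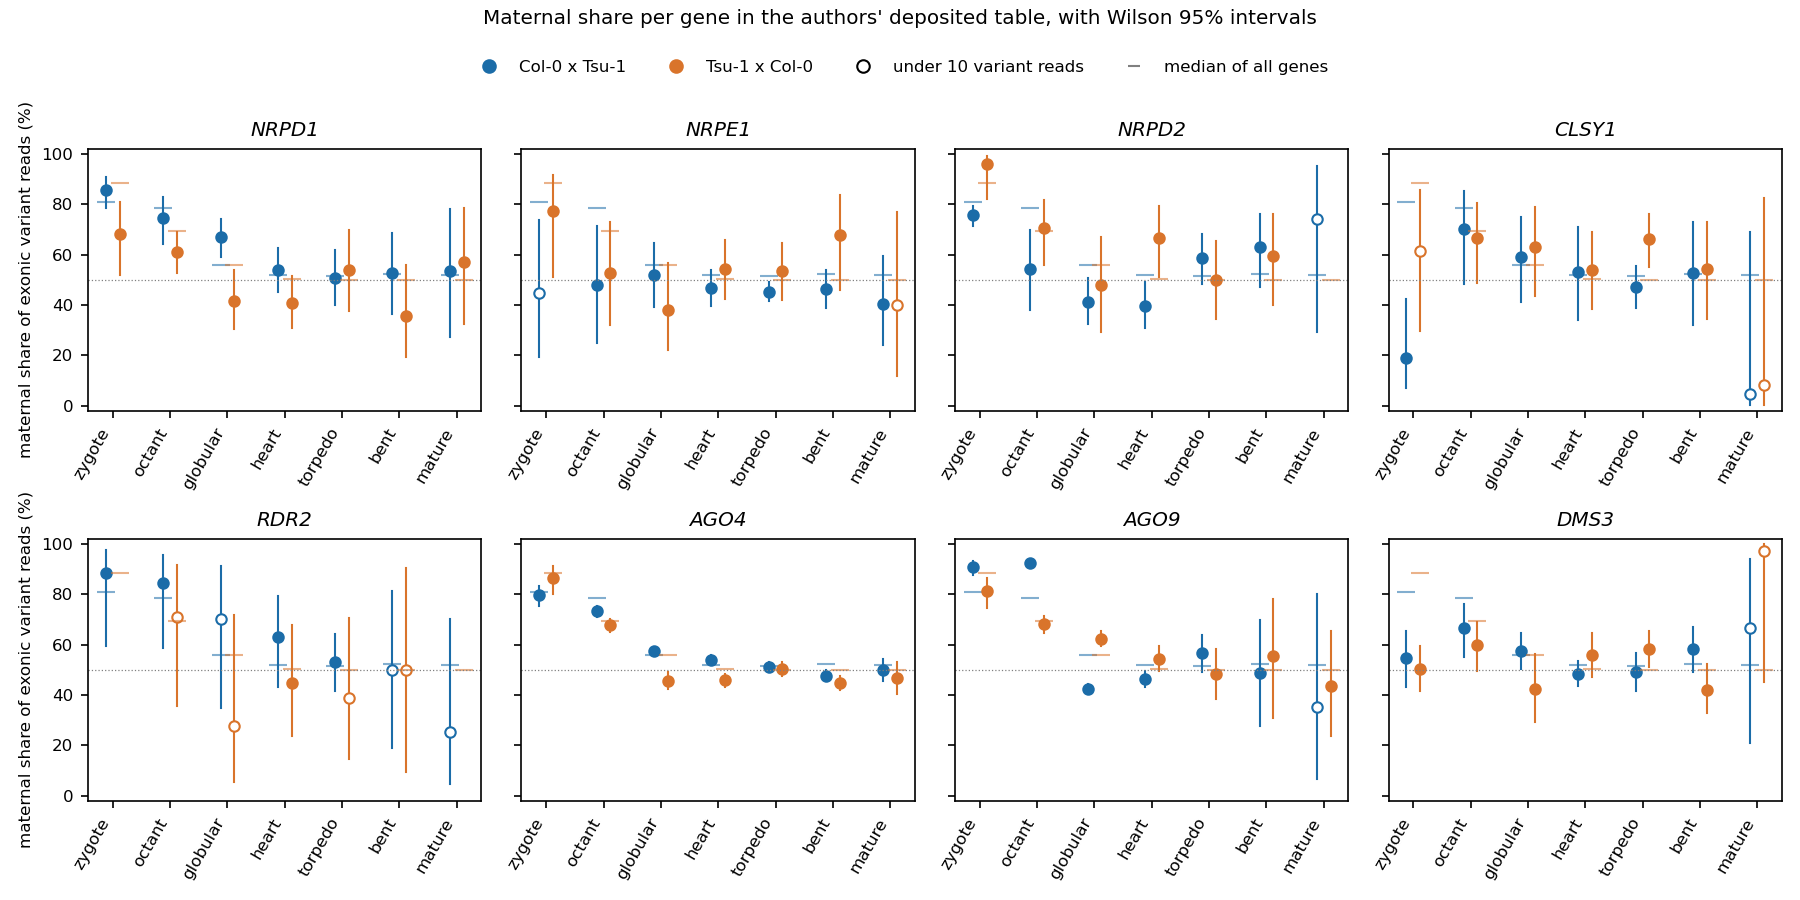
Maternal share of exonic variant reads for the 8 genes with values in the authors' deposited table, in percent, by stage and cross, with Wilson 95% intervals. Open circles had under 10 variant reads and dashes are medians of all genes. AGO4 and AGO9 were at 79.6 to 90.9% in the zygote and at 42.6 to 62.4% in the globular embryo.

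Among 28 other genes of the pathway, chosen from general knowledge, 4 of 27 tested changed from zygote to octant, 3 higher and 1 lower, where 34.3% of all genes were called. The counts were 7 of 27 from octant to globular, 4 of 28 from globular to heart, 4 of 27 from heart to torpedo and 12 of 26 from torpedo to bent, with 5, 2, 2 and 6 higher, where 36.9, 16.9, 20.1 and 44.4% of all genes were called. From ovule to zygote 1 of 27 rose, where 8.8% of all genes were called. From bent to mature 17 of 25 changed, 2 higher and 15 lower, with a median of -1.45 (log2), where 54.5% of all genes were called. DRM1, a relative of the methyltransferase DRM2, fell from 8.21 to 15.1 CPM in the zygotes to 3.04 to 4.80 CPM at the octant, by 1.61 ± 0.35 (log2, SE; edgeR adjusted p = 0.0136). From heart to torpedo it fell by 3.70 ± 0.55 (log2, SE; edgeR adjusted p = 0.00244). Its mean went from 1.57 to 0.129 CPM there, with only 0 to 7 reads in the torpedo libraries. AGO3 was at 33.1 and 31.0 CPM in the ovules, and from globular to heart it fell by 3.22 ± 0.47 (log2, SE; edgeR adjusted p = 0.000767). That was from a mean of 2.83 to 0.32 CPM, with only 1 to 10 reads in the heart libraries. CLSY2 rose by 2.62 ± 0.33 from torpedo to bent (log2, SE; edgeR adjusted p = 4.05e-05). FDM1 and FDM2, RNA-binding partners of the pathway, fell by 3.63 ± 0.54 and 3.65 ± 0.54 from bent to mature, and SUVR2 by 3.57 ± 0.45 (log2, SE; edgeR adjusted p = 0.000368, 0.000333 and 0.000135).

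For each member the gene with the most similar course was named by Pearson correlation of log2 CPM over 15 group means, among about 10541 genes of mean log2 CPM of at least 3. It was SLP2 for NRPD2 at 0.959, AL4 for AGO9 at 0.911, NF-YA6 for CLSY1 at 0.909, GATA10 for DCL3 at 0.899 and GTF2H2 for AGO6 at 0.931. The most similar genes to NRPD1, NRPE1, RDR2, AGO4 and DMS3 had locus names only, AT3G02880 at 0.887, AT3G61310 at 0.961, AT3G17350 at 0.967, AT5G60940 at 0.949 and AT5G10110 at 0.944. The points share libraries, depth and scaling, and so many genes were searched that these values are descriptions.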

How the data were processed

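The data were a table of total reads per gene in 29 libraries and a table of parental contributions per gene, stage and cross. The total reads are estimated counts as the authors deposited them, since 8.68 to 22.4% of the values in each column held a decimal part. The submitters' processing notes name STAR 2.7.0d, featureCounts 1.6.0, edgeR and the TAIR10 build, and give no role or order for them here. The parental fraction and the adjusted p-value per gene are the authors' own, deposited with no spread between libraries. How strand was treated is not given in the sources used here.

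Counts were rounded to whole numbers, filtered with filterByExpr, scaled by TMM and tested with edgeR 4.0.16 (quasi-likelihood, two-sided, Benjamini-Hochberg over all genes tested). Successive stages were fitted on the libraries of both stages with the cross as a covariate, ovule and zygote on their own libraries, and reciprocal crosses and their interaction with stage on all 29 libraries in a model of group means. Replicates are separate samples by their labels, but no label says which plants they came from, so p-values measure the spread between these samples. TMM-scaled CPM of late libraries, whose factors are low, can add up to more than CPM normally does. Levels per length use exon lengths of RefSeq TAIR10.1, used also for names and overlaps. Promoter sequences are not reported here. The test script was tested on simulated data.

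The genes and lists were chosen with earlier results of these data known. Alternatives were RLE size factors, no low-count filter, DESeq2, a replicate block, leaving out each library, other models and, for parental calls, 5 or 20 variant reads, p under 0.01 and introns. Scaling by library totals alone was added after seeing the data. All 10 genes are described. Of the other pathway genes, the 6 with the largest called change between successive stages are named, and the 1 most similar gene per member.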

Additional observations from a re-analysis of the deposited data

Results flagged for a closer look

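Within stages of 4 libraries, 6 of 60 sets of values had 1 library far from the other 3 by Dixon's test, which chance gives in about 1 in 20. AGO4 and AGO6 were both high in Col-0 x Tsu-1 torpedo replicate 1, at 8.30 and 4.66 (log2 CPM). AGO6 was at 0.48 and RDR2 at -0.22 in Col-0 x Tsu-1 mature replicate 2, both the lowest of their stage. DMS3 was at 3.46 in Col-0 x Tsu-1 mature replicate 1. NRPD1 was at 0.38 in Tsu-1 x Col-0 bent replicate 2, the library with the fewest reads.

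A stage change differed between the crosses in 3 cases by the interaction test of edgeR, each given as Tsu-1 x Col-0 minus Col-0 x Tsu-1. From zygote to octant AGO6 differed by 2.87 (log2, adjusted p = 0.0348) and RDR2 by 1.98 (adjusted p = 0.0279), where 24.7% of all genes were called. Genes called higher made up 56.7% of those calls, and 69.4% with library totals alone. The Col-0 x Tsu-1 zygote is 1 library, and leaving out any 1 octant library or 1 Tsu-1 x Col-0 zygote library lost each of them, replicate 1 for AGO6 and replicate 2 for RDR2. From bent to mature AGO9 differed by 2.60 (adjusted p = 0.0232), where 4.93% of genes were called. Its levels there were 1.06 to 4.85 CPM, and 7 of 13 alternatives lost it, with 1.85 (adjusted p = 0.40) without Tsu-1 x Col-0 bent replicate 1.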

How the results depend on the processing

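No called value of the 10 genes reversed in any alternative run. Leaving out 1 library at a time, the number of genes called ran from 4 to 9 for zygote to octant, 2 to 4 for octant to globular, 0 to 1 for globular to heart, 3 to 5 for heart to torpedo, 3 to 5 for torpedo to bent, 5 to 8 for bent to mature, 0 to 7 for ovule to zygote and 10 to 10 for all stages. For the reciprocal crosses it ran from 1 to 2 at the zygote, 0 to 0 at the octant, globular and heart stages, 0 to 1 at the torpedo and bent stages and 1 to 2 at the mature stage. For the interactions it ran from 0 to 2 from zygote to octant, 0 to 1 from bent to mature and 0 to 0 elsewhere. Library totals alone gave 0 genes from globular to heart, 7 from torpedo to bent, 10 from bent to mature, and 0, 2 and 5 between the crosses at the torpedo, bent and mature stages. From ovule to zygote the model of all libraries called 6 and zygotes with a Col-0 mother 4. Between the crosses DESeq2 called 1 at the heart, 3 at the torpedo and 2 at the bent stage, RLE size factors called 2 at the torpedo stage, and the libraries of a stage alone called 0 at the torpedo and bent stages. Without a low-count filter 0 were called at the bent stage and 0 for the interaction from bent to mature. Of the parental calls at the zygote, 1 gene was called maternal at p under 0.01 in the authors' deposited table. These counts show how the calls of the members depend on the processing. The shares of all genes called in the same fits are not given beside them, so they say nothing particular of the members. The cause of the differences between settings was not tested.

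With a replicate block, 0 of the 10 genes were called from globular to heart and 1 from ovule to zygote. The shares of all genes called in those fits are not given, so these counts say nothing particular of the members. AGO4 from ovule to zygote and NRPE1 from zygote to octant lost their calls there (edgeR adjusted p = 0.0587 and 0.0648). AGO9 from globular to heart and NRPD1 from heart to torpedo lost theirs too (edgeR adjusted p = 0.0749 and 0.072). The labels give no pairing by replicate number, and over 91 pairs of 14 groups the correlation of deviations ran from -0.282 to 0.42, with 13 over 0.1. With the replicate block 206 of 210 single-gene results kept their direction and their side of the threshold. With 2 libraries a group, and 1 for the Col-0 x Tsu-1 zygote, a lone library left in a group is assumed to vary like the others. Depth limits several members in the shallowest bent library, where NRPD1 and DCL3 had 1 read each, AGO9 had 2, and CLSY1 and RDR2 had 5 each. In the Tsu-1 x Col-0 zygotes AGO6 rested on only 3 and 7 reads, and CLSY1 on 15 and 9. Depth also limits most intronic parental values, which had few reads.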
